A study of Mus musculus with 5 samples.

Results

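BVECTN_4 is a cell line labelled BVE-Ctnnb1null, grown from a mouse thyroid tumor with BRAFV600E and deletion of CTNNB1, the gene of β-catenin. Its single RNA-seq library was compared with both libraries of the BVE line (BVE-Ctnnb1wt), grown from a thyroid tumor with BRAFV600E and no labelled deletion. These 3 libraries of the 5 in the series are picked by a rule that uses their labels and no measured value. Estimated read counts and FPKM (fragments scaled to transcript length and library size) were summed over the transcripts of each gene, and the genes described are those for which BVECTN_4 lay outside both BVE libraries. The study compared the tumor growth of thyroid cancer cells with and without β-catenin, and RNA-seq was used to compare their gene expression. The remaining libraries come from the null lines BVECTN_4A (passage 11) and BVECTN_5 (passage 7), for which the labels do not state thyroid-stimulating hormone (TSH).

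Both BVE libraries carried passage 20, the first labelled without and the second with TSH, the pituitary hormone that drives thyroid follicular cells. The BVECTN_4 library carried passage 8 and the label no TSH. In the growth protocol the wt cells are put at about passage 25 and the null cells at about 20, and the medium of all cells is described as holding 4 mU/mL TSH, both of which differ from the sample labels. BRAFV600E, which activates the ERK pathway, is thus shared by every library, and genotype, cell line and passage cannot be told apart. Each group rests on 1 line, so the BVE libraries are repeats of a line under different hormone conditions and BVECTN_4 has no replicate. Estimated counts summed to 30432737 and 30713079 in the BVE libraries and to 29929677 in BVECTN_4. The files list a gene only from an FPKM of 0.01 upward, so an unlisted gene is given here as 0. Fold differences from such a gene are lower bounds against the nearer BVE library, computed with 3 counts in its place. On library totals these 3 counts are 0.1 CPM (counts scaled to library size). The bounds are ratios after TMM scaling, so they do not follow from 0.1 CPM and hold on the TMM scale only. Such bounds cover counting error only.

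Epithelial cells are held together by tight junctions, adherens junctions and desmosomes and carry a keratin cytoskeleton. Mesenchymal cells lack most of these, make fibrillar collagens and vimentin, and express transcription factors of the ZEB, SNAI and TWIST families, which bind E-box sequences in the promoters of epithelial genes. β-catenin has a role on both sides, as the link between cadherins and the cytoskeleton and as the coactivator of TCF/LEF factors in Wnt signaling.

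BVECTN_4 had far more RNA of most tight junction and desmosome genes and of the keratins Krt7 and Krt19 than either BVE library, and far less of vimentin, smooth muscle actin and the fibrillar collagen genes Col1a1, Col1a2 and Col3a1. The test was edgeR's quasi-likelihood test on the 3 libraries after TMM normalization, with Benjamini-Hochberg adjustment over 13513 genes. In all, 2250 genes (16.7% of those tested) were higher than in both BVE libraries and 1663 (12.3%) were lower at an adjusted p under 0.05. By size alone, with 0.5 added to the TMM-scaled CPM, 1117 genes (8.27%) were at least 4-fold above the nearer BVE library and 612 (4.53%) at least 4-fold below it, while 91 genes (0.673%) differed by that much between the BVE libraries. Without a limit of size, 6019 genes (44.5%) were above both BVE libraries and 5566 (41.2%) below both. Among the listed genes nearest to the 4-fold limit, Slc5a5 was 4.01-fold above the nearer BVE library, and Fzd9 was 4.12-fold and Pfkp 4.00-fold below it.

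These calls compare libraries and not genotypes. The only spread in the test is that between the BVE libraries, and BVECTN_4 is assumed to vary like them. When all 5 libraries were fitted together as BVE, BVECTN_4 and other null lines, 0 genes passed in either direction for BVECTN_4 against BVE. The lowest adjusted p was then 0.0882, with 1713 genes higher and 1281 lower at an unadjusted p under 0.05. Every call below is therefore a call on these 3 libraries. The scaling also matters, since the top 10 genes by abundance held 14.3% and 15% of all reads counted in BVE, against 6.9% in BVECTN_4. Across 12056 genes the log2 fold changes had a median of -0.01 with TMM, 0.57 on library totals and 0.6 on log2 of FPKM plus 0.1. Fold changes and calls are given relative to the TMM center. The FPKM values printed below are not TMM-scaled, so BVECTN_4 stands higher in them than in the test. On library totals 2979 genes were higher and 711 lower. Of the genes tested, 1039 had under 10 counts in both BVE libraries and 729 had under 10 in BVECTN_4. Such genes passed the filter through the side where they were high, so list counts are descriptions.

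**Figure D1:**
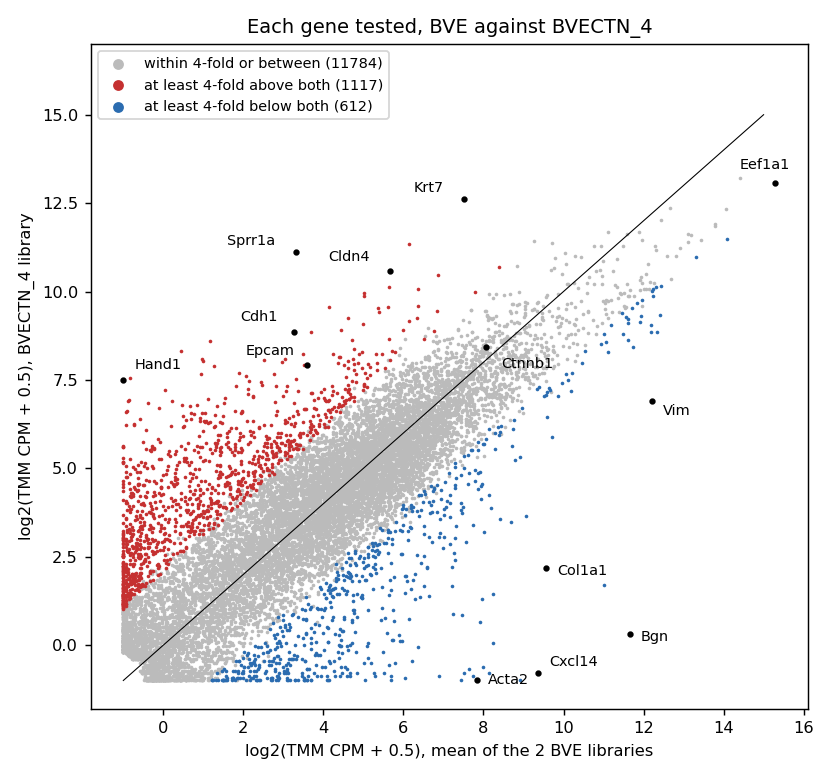
Each point is 1 of the 13513 genes tested, with the mean of the BVE libraries on the x axis and BVECTN_4 on the y axis, both as log2 of TMM-scaled CPM plus 0.5, and the line marks equal values. The 1117 genes at least 4-fold above both BVE libraries (red) include Krt7, Epcam and Hand1, and the 612 at least 4-fold below (blue) include Bgn, Col1a1 and Vim.

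Epcam, the epithelial cell adhesion molecule, had an FPKM of 5.04 in BVE without TSH, 4.61 in BVE with TSH and 152 in BVECTN_4. The BVE values lay close together and the BVECTN_4 value stood apart from both (log2 fold change 4.39, standard error 0.42, adjusted p = 2.99e-05). FPKM values below follow the same order, BVE without TSH, BVE with TSH, BVECTN_4. Ctnnb1, the gene labelled as deleted, had 59.3, 73.8 and 125 (6432, 8043 and 13568 counts), so its RNA in BVECTN_4 was above both BVE libraries in FPKM. The difference did not pass the test (log2 fold change 0.34, standard error 0.42, adjusted p = 0.573). The values are sums over whole transcripts and cannot show the loss of single exons, so the label of this library was not tested by them. In the other null lines Ctnnb1 had 196 (BVECTN_4A) and 118 FPKM (BVECTN_5), so this holds for every null library.

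The promoters of 4 epithelial genes that were at least 4-fold above both BVE libraries are shown because each holds an E-box, and they were chosen after their values and sequences were seen. They are the 250 bases before the transcription start in GRCm38.p6, 5′ to 3′ on the strand of the gene. Capitals mark the E-box CACCTG or CAGGTG, which are reverse complements of each other and hence 1 motif on both strands, with no overlap between matches. Epcam (chr17:87635729-87635978, plus strand) holds 2, which begin 187 and 19 bases before the start. Cldn4 (chr5:134946935-134947184, minus strand) holds 1 at 14 bases, Rab25 (chr3:88548280-88548529, minus strand) holds 2 at 64 and 53 bases, and Krt7 (chr15:101412153-101412402, plus strand) holds 1 at 44 bases.
Epcam: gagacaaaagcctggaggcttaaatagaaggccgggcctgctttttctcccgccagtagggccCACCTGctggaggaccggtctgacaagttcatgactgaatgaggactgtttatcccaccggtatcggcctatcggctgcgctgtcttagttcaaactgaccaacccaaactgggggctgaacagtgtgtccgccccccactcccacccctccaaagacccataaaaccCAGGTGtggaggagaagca
Cldn4: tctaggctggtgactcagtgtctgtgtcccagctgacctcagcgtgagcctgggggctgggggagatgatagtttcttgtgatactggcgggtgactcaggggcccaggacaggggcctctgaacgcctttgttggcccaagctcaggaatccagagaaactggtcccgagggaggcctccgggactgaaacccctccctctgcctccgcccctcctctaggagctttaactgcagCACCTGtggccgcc
Rab25: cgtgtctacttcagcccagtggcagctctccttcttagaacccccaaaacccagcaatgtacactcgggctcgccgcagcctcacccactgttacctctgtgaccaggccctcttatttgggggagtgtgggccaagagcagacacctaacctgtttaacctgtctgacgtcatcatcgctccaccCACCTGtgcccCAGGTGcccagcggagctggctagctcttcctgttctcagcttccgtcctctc
Krt7: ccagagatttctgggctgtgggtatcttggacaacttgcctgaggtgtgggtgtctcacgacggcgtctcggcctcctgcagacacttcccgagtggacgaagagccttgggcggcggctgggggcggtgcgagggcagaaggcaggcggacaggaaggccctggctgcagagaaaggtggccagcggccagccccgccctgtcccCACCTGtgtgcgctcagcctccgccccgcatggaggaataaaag

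Over all 27025 genes with a promoter entry, 19.4% held this E-box in at least 1 such window. It was present in 9 of 15 Epcam and tight junction genes with an entry (60%), 5 of 8 epithelial regulators (62.5%), 6 of 9 keratins (66.7%) and 0 of 2 desmosome genes. Among mesenchymal lists it was present in 3 of 21 collagen genes (14.3%), 1 of 19 matrix glycoprotein and proteoglycan genes (5.26%) and 0 of 11 contractile and cytoskeletal genes. Of the genes at least 4-fold above both BVE libraries 276 of 825 held it (33.5%), against 74 of 449 (16.5%) of those at least 4-fold below and 2003 of 10666 (18.8%) of all genes tested. A match describes these letters in this window and was not related to binding of any factor.

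Tight junction genes seal the space between epithelial cells, and 17 of the 19 tested with Epcam were higher in BVECTN_4, 0 were lower and 13 were at least 4-fold above both BVE libraries. Their median log2 fold change was 4.86 (4.82 with the gene at or under 3 counts set to that limit), against 0.02 over all genes tested. Cldn4, a claudin, rose from 20.2 and 27.8 to 1087 FPKM. Cldn6 had 15.5, 21.6 and 804, and Cldn3 had 11.9, 12.02 and 789. For each of these claudins the BVE libraries lay close together and BVECTN_4 far above (log2 fold changes 4.89, 4.82 and 5.45 in the order named). Marveld3, a tight junction membrane protein, had 0.13, 0.21 and 20.7. The members that did not pass were F11r and Cldn12.

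Among cadherins and catenins the picture was mixed, with 5 of 13 higher, 1 lower and a median log2 fold change of 0.60. Cdh1, E-cadherin of the adherens junction, had 1.94, 1.62 and 136 FPKM (log2 fold change 5.67, standard error 0.43, adjusted p = 9.99e-06). Cdh16, a kidney and thyroid cadherin, had 0.04, 0.01 and 6.30. Cdh13, a cadherin without a cytoplasmic tail, went the other way with 34.2, 42.2 and 21.1 (log2 fold change -1.46, adjusted p = 0.0377), although it did not pass on library totals, where 0 members of the list were lower. Ctnna1, α-catenin, which links cadherins to actin, had 153, 183 and 271 and did not pass. On TMM-scaled CPM it lay between the BVE libraries (615, 850 and 777).

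Desmosomes anchor keratin filaments at the cell border. Of 10 desmosome genes tested 9 were higher, all of them at least 4-fold above both BVE libraries, with a median log2 fold change of 4.34. Jup, plakoglobin, a homolog of β-catenin that also binds cadherins, had 4.28, 6.71 and 139 FPKM (log2 fold change 4.04, standard error 0.46, adjusted p = 8.59e-05). Perp, a desmosomal membrane protein, had 1.29, 1.48 and 111. Dsp, desmoplakin, had 0.06, 0.14 and 14.5. Pkp2 was the member that did not pass, with 7.59, 8.69 and 17.1.

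Keratins form the intermediate filaments of epithelia, and 7 of 13 were higher and 0 lower (median 2.60, or 2.13 with the 2 genes at or under 3 counts on one side set to that limit). Krt7 had 79.6, 124 and 5131 FPKM, which made it the fifth most abundant gene of the BVECTN_4 library. Krt19 had 31.4, 51.1 and 2244. Both stood more than 4-fold above the BVE pair, whose own values differed by much less. Krt18 was higher by less (321, 457 and 2605, log2 fold change 2.13, adjusted p = 0.00306). Its partner Krt8 had 634, 1104 and 1798 and did not pass (log2 fold change 0.43, adjusted p = 0.517), so the pair of simple epithelial keratins was present in every one of these libraries.

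Genes that set or serve the epithelial state were also high. Of 16 such regulators, 14 were higher, 0 lower and 12 at least 4-fold above both BVE libraries, with a median log2 fold change of 4.32. Rab25, a GTPase of epithelial membrane recycling, had 7.12, 5.13 and 323 FPKM. Spint1, a membrane inhibitor of serine proteases, had 1.20, 1.22 and 119, and its relative Spint2 had 27.8, 27.2 and 685. St14, matriptase, one of the proteases they inhibit, had 2.08, 2.55 and 96.1. The protease and its inhibitors thus stood above BVE together. Elf3, an epithelial ETS transcription factor, had 8.0, 9.06 and 65.1 (log2 fold change 2.34, adjusted p = 0.00196).

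**Figure D2:**
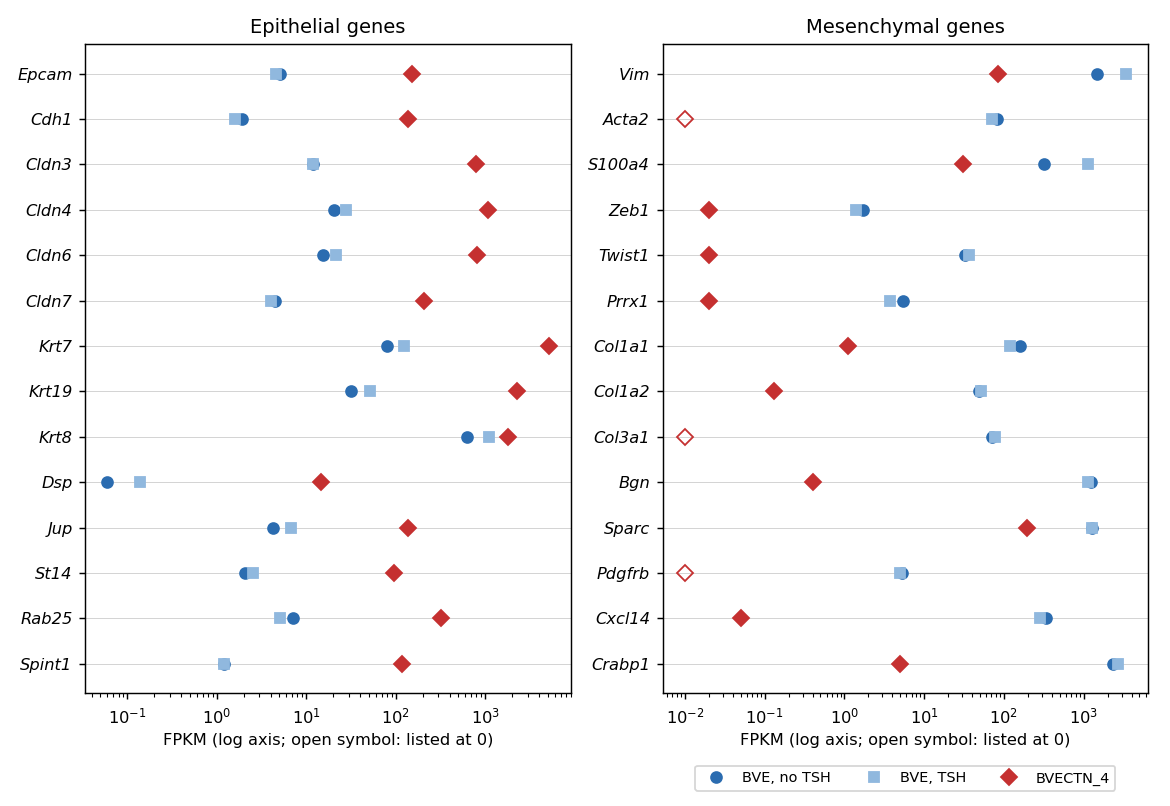
FPKM of 14 epithelial (left) and 14 mesenchymal genes (right) in the 3 libraries on a log axis, with 1 symbol per library and an open symbol where a gene is listed at 0. BVECTN_4 lies to the right of both BVE libraries for the epithelial genes and to their left for the mesenchymal genes, with Krt8 (634, 1104 and 1798 FPKM) among the closest. FPKM is not TMM-scaled, and on TMM-scaled CPM Krt8 was near equal in BVE with TSH (2465) and BVECTN_4 (2482).

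Several transcription factors of epithelial to mesenchymal transition were lower. Of 12 tested, 6 were lower (4 on library totals), 1 was higher and 5 did not pass, with a median log2 fold change of -2.25. Twist1 had 1656, 1859 and 1 counts (32.5, 36.1 and 0.02 FPKM). Zeb1 had 307, 254 and 3 counts, and Prrx1 had 776, 567 and 3. BVECTN_4 was thus at or under 3 counts for each of these, far from both BVE libraries. Snai1 was lower but well detected (23.6, 31.8 and 9.54 FPKM, log2 fold change -2.15, adjusted p = 0.00967). The member that was higher was Snai3, with 9, 1 and 265 counts.

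Contractile and mesenchymal cytoskeleton genes followed, with 7 of 11 lower (2 with limma on log2 of FPKM plus 0.1), 0 higher and a median log2 fold change of -2.05. Vim, vimentin, the intermediate filament of mesenchymal cells, had 1478, 3406 and 85.1 FPKM (log2 fold change -5.48, standard error 0.71, adjusted p = 0.000207). Acta2, smooth muscle actin, had 6494, 5713 and 0 counts, which with 3 counts in place of 0 is at least 2971-fold lower. Myl9, a myosin light chain, had 536, 476 and 2 counts. The BVE libraries differed from each other for Vim by more than for Acta2 or Myl9, and BVECTN_4 lay below both in each case. Cnn2 and Cald1, actin-binding proteins, did not pass.

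Collagens split by type. Of 22 tested, 9 were lower, all at least 4-fold below both BVE libraries, and 3 were higher, with a median log2 fold change of -1.45. Col1a1 and Col1a2 encode the chains of fibrillar type I collagen. Col1a1 had 161, 118 and 1.11 FPKM (log2 fold change -7.56, standard error 0.61, adjusted p = 1.21e-05), and Col1a2 had 49.4, 51.1 and 0.13. Col3a1, of type III collagen, had 12155, 13548 and 0 counts, at least 5560.5-fold lower. The microfibrillar chains Col6a1 and Col6a2 were lower as well, with 99.8, 131 and 3.92 FPKM for Col6a1. Col18a1, a basement membrane collagen, had 146, 124 and 179 and did not pass, and none of the 6 type IV chains tested passed. On TMM-scaled CPM Col18a1 was slightly below both BVE libraries (802, 788 and 701).

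Other matrix genes were lower in 11 and higher in 5 of 26 cases (median log2 fold change -1.51). Bgn, the proteoglycan biglycan, had 1228, 1122 and 0.40 FPKM (90353, 83403 and 29 counts, log2 fold change -12.09, standard error 0.71, adjusted p = 7.33e-06). Sparc, a collagen-binding glycoprotein, had 1269, 1289 and 196. Fbn1, fibrillin, had 1474, 1286 and 0 counts, at least 671-fold lower. In contrast Spp1, osteopontin, was higher with 71.2, 22.1 and 373, and Fn1, fibronectin, had 123, 87.7 and 234 and did not pass (adjusted p = 0.335). Of 24 matrix proteases and inhibitors, 7 were higher and 8 lower, among them Mmp15, a membrane-bound protease (0.04, 0.19 and 43.9), Plau, urokinase (3.44, 3.75 and 80.1), and the gelatinase Mmp2 (80.9, 77.9 and 7.87).

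Integrins, the receptors of the matrix, and laminins of the basement membrane went both ways. Among 17 integrins 8 were higher and 3 lower (1 and 0 with limma on log2 of FPKM plus 0.1). Itga3 and Itgb4 encode laminin-binding subunits and were higher, while Itga7, also laminin-binding and named after its values were seen, was lower with 667, 330 and 89 counts. Itga3 had 75.4, 45.3 and 438 FPKM, Itgb4 had 9.19, 5.36 and 85.5, and the collagen-binding Itga2 had 0.14, 0.12 and 7.28. Itga11, which also binds collagen, had 217, 440 and 0 counts, at least 99.2-fold lower. Of 9 laminin chains 4 were higher and 2 lower (1 lower on library totals, and 0 lower with limma on log2 of FPKM plus 0.1). Lama3 and Lamb3, chains of epithelial laminin-332, were at least 4-fold above both BVE libraries, with 1.01, 0.43 and 19.9 for Lama3 and 6.68, 6.38 and 99.1 for Lamb3. The common β chain Lamb1 was lower, with 122, 76.0 and 41.9.

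**Figure D3:**
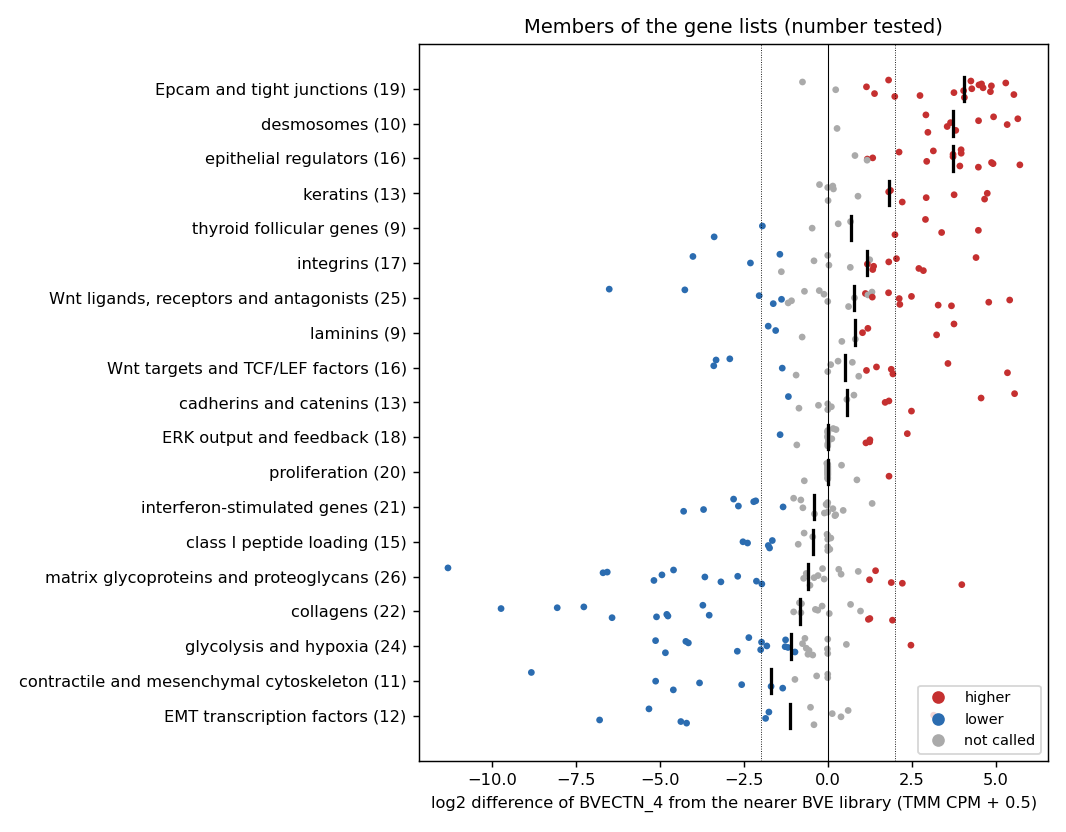
Each point is a tested member of 1 gene list, placed by the log2 difference of BVECTN_4 from the nearer BVE library (TMM-scaled CPM plus 0.5, 0 where it lies between them), red for higher, blue for lower and grey for not called, with a bar at the list's median and dotted lines at 4-fold. Junction, desmosome and regulator genes lie mostly beyond the upper line, while the matrix, collagen and contractile lists reach farthest below among the 19 lists drawn.

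All libraries are labelled thyroid epithelial cells, and the thyroid markers were few. Of 19 thyroid follicular genes 9 were abundant enough to test, of which 4 were higher and 2 lower in BVECTN_4 (1 lower on library totals). Pax8, a transcription factor of the follicular lineage, had 0.40, 0.17 and 18.2 FPKM (32, 14 and 1406 counts, log2 fold change 5.40, standard error 0.55, adjusted p = 4.33e-05). Nkx2-1, its partner, was present in each library with 9.21, 15.02 and 9.26 and did not pass. Slc5a5, the iodide transporter, had 1.03, 0.36 and 6.48 and was higher, whereas Tg, thyroglobulin, the hormone precursor, had 211, 230 and 10 counts and was lower. Hhex, a further factor of the lineage, was lower with 3.71, 4.14 and 1.08. The lineage factors thus differed in direction. Of the 19 genes 6, Foxe1 among them, were not listed in BVECTN_4, against 7 in each BVE library. Foxe1 had 0, 1 and 0 counts.

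Markers of other cell types were examined in the same libraries. The 11 fibroblast markers summed to 389 and 304 FPKM in BVE and to 13.3 in BVECTN_4. Of 7 tested 6 were lower, each by at least 4-fold, and 4 of the 11 were not listed in BVECTN_4, among them Pdgfrb with 879, 859 and 0 counts. In the BVE libraries 2 and 3 of the 11 were not listed. Col1a1 was the most abundant fibroblast marker in BVE and Pdpn in BVECTN_4 (11.6 FPKM). In bulk RNA, fewer cells of a type and less RNA per cell cannot be told apart, and the part of other cells in the collagen and vimentin values was not tested. Of 4 leukocyte markers tested 1 was higher and 1 lower (0 lower on library totals, and 0 in either direction with limma on log2 of FPKM plus 0.1), the latter Lyz2, lysozyme, with 16, 45 and 1 counts. The list was led by Cd68, the member that was higher, a lysosomal protein, with 6.09, 14.2 and 59.8. Of its 12 genes 7 were not listed in BVECTN_4, Ptprc, the pan-leukocyte marker, among them, against 6 and 7 in the BVE libraries. Endothelial markers summed to 0.11 FPKM or less in each of these libraries, and skeletal muscle markers to 2.12 or less. The C cell list summed to 2.87, 2.17 and 2.51 FPKM, with Insm1, a neuroendocrine transcription factor, higher in BVECTN_4 (1, 2 and 95 counts) and Syp, synaptophysin, lower (158, 121 and 9).

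Wnt pathway genes are of interest because β-catenin is their effector. Of 25 ligands, receptors and antagonists 10 were higher and 5 lower (3 on library totals), with a median log2 fold change of 1.21. Among ligands Wnt7b had 15.8, 9.52 and 287 FPKM (log2 fold change 3.94, standard error 0.42, adjusted p = 6.06e-05), Wnt7a had 4.58, 6.42 and 103, and Wnt10a had 1.15, 0.98 and 83.2. The coreceptor Lrp5 had 6.42, 8.21 and 75.5. The secreted antagonist Dkk3 was lower with 32.0, 47.4 and 2.17, and Dkk2 had 1518, 1246 and 2 counts. These ligands and the coreceptor were thus above, and these antagonists below, both BVE libraries. Wls, also on the list, was lower with 85.1, 114 and 45.8 (log2 fold change -1.73), so no direction is given for the list as a whole.

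Of 16 Wnt targets and TCF/LEF factors 6 were higher (3 with DESeq2) and 4 lower (median log2 fold change 0.73, with 7 of the 16 at or under 3 counts on one side). Axin2, a feedback inhibitor widely used as a readout of β-catenin, had 129, 198 and 0 counts, at least 59.0-fold lower. Nkd1, another feedback inhibitor, had 265, 126 and 1 counts, and Apcdd1 had 19.5, 22.7 and 3.42 FPKM. Tcf7l1, a TCF factor that mainly represses, was higher with 0.11, 0.04 and 15.5, and Lef1 had 0, 0 and 215 counts, at least 45.8-fold higher. Ccnd1 (393, 250 and 683), Myc (34.5, 13.0 and 51.4) and Cd44 (20.4, 13.9 and 42.9), targets shared with other pathways, did not pass. Nkd2 (0, 0 and 34 counts) and Rnf43 (9, 4 and 99), further feedback genes named after their values were seen, were called higher. Both had under 10 counts in both BVE libraries and passed the filter through BVECTN_4. Neither was 4-fold above both BVE libraries with 0.5 added to the CPM, so no direction is given for feedback genes as a group.

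Of 18 ERK output and feedback genes 4 were higher and 1 lower (0 on library totals), and the median log2 fold change of 0.27 was near that of all genes. Dusp6, a phosphatase induced by ERK, had 69.3, 14.1 and 27.3 FPKM, so BVECTN_4 lay between the BVE libraries. Fosl1, an AP-1 factor, did likewise with 69.8, 14.7 and 32.8. Among ERBB receptors and ligands 4 of 12 were higher, such as the receptor Erbb3 (1.00, 0.81 and 12.2) and the ligand Tgfa (1.38, 1.26 and 16.0). The ERBB feedback inhibitor Errfi1 was lower, with 186, 83.3 and 16.0. Of 14 other receptor tyrosine kinases 7 were higher, Ddr1 among them (13.0, 17.9 and 96.1), and 3 lower. The related collagen receptor Ddr2 had 1331, 812 and 2 counts. Of 21 TGF-β ligands, receptors and targets 4 were higher, with Smad3 at 7.73, 4.25 and 62.1, and 2 were lower, against 7 higher and 0 lower on library totals. The shares of this TGF-β list are near those over all genes tested (16.7% higher and 12.3% lower).

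For natural killer cell recognition, 6 of the 9 NKG2D ligand genes could be tested. H60a was higher (0, 3 and 88 counts) and Raet1e lower (7.77, 6.46 and 2.34 FPKM). On library totals, and also with limma on log2 of FPKM plus 0.1, 2 ligand genes were higher and 0 lower. The shares in the main test, 1 of 6 in each direction, are near those over all genes tested (16.7% higher and 12.3% lower). Among 4 class I genes 3 were lower (1 with limma on log2 of FPKM plus 0.1), with H2-K2 at 3.28, 5.86 and 0.30. Class I genes are near-identical copies between which reads may be split, so their single values are uncertain. Class I peptide loading genes were lower in 5 of 15 cases and higher in 0 (3 lower on library totals, and 0 with limma on log2 of FPKM plus 0.1). The immunoproteasome subunits Psmb8 and Psmb9 went farthest, with 2.96, 8.53 and 0.28 for Psmb8 and 72, 266 and 3 counts for Psmb9. B2m, the light chain of class I, had 573, 897 and 493 and did not pass. Of 21 interferon-stimulated genes 7 were lower (1 with limma) and 0 higher, among them Isg15, a ubiquitin-like modifier (17.3, 9.90 and 0.41), and Oas1a, a sensor of double-stranded RNA (9.52, 9.16 and 0.36).

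Of 21 chemokines and cytokines 5 were higher and 6 lower, and the median of -0.08 turned positive on library totals (0.44). Cxcl14 had 19137, 16385 and 3 counts. Cxcl12, the ligand of CXCR4, had 66.2, 115 and 6.33 FPKM and Ccl2, which attracts monocytes, had 50.3, 45.9 and 4.38. On the other side Cxcl5, which attracts neutrophils, had 11.6, 11.8 and 191 (log2 fold change 3.43, adjusted p = 0.000125). BVECTN_4 was outside the BVE pair by more than 4-fold for each of these.

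Glycolysis and hypoxia genes were lower in 13 of 24 cases (9 on library totals, and 1 with limma on log2 of FPKM plus 0.1) and higher in 1, with a median log2 fold change of -1.82. Car9, carbonic anhydrase of hypoxic cells, had 17.8, 39.0 and 0.39 FPKM (log2 fold change -6.80, standard error 0.81, adjusted p = 0.000124). Slc16a3, the lactate exporter, had 122, 176 and 5.72. Egln3, an oxygen-sensing hydroxylase, had 58.9, 117 and 4.19, and the glycolytic enzyme Pgk1 had 1541, 3186 and 334. The BVE library with TSH was above the one without for each of these, and BVECTN_4 was below both. Ldha, lactate dehydrogenase, had 1535, 2828 and 611. The member that was higher was Hk2, hexokinase (3.74, 3.64 and 33.4), which falls outside the rule for named genes and was named after its values were seen. Of 20 proliferation genes 1 was higher, Mki67 with 31, 146 and 860 counts, and the median of -0.12 turned positive on library totals (0.51). Mcm5, a helicase subunit of DNA replication, had 7.88, 43.5 and 32.2 FPKM, so BVECTN_4 lay between the BVE libraries.

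Hox genes record the position of a cell along the body axis. Of 17 tested 9 were lower and 2 higher, and their log2 fold changes had a median of -5.36, which became -2.17 with the 7 genes at or under 3 counts on one side set to that limit. The HoxA genes had at most 4 counts in BVECTN_4, with 248, 346 and 0 counts for Hoxa2, 258, 262 and 0 for Hoxa4, and 320, 384 and 3 for Hoxa5. Hoxc4 had 383, 467 and 6 counts. Most HoxB genes were well detected in every library, with 14.8, 14.1 and 12.7 FPKM for Hoxb4, 10.0, 8.14 and 33.1 for Hoxb7, and 20.1, 8.31 and 73.0 for Hoxb9. Hoxb7 and Hoxb9 were the members that were higher (adjusted p = 0.0454 and 0.0163), against 1 higher member with DESeq2 and 0 with limma on log2 of FPKM plus 0.1. Within the HoxB cluster Hoxb5 was lower (11.97, 12.6 and 5.86), and Hoxb13 had 201, 161 and 0 counts, a gene named after its values were seen.

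**Figure D4:**
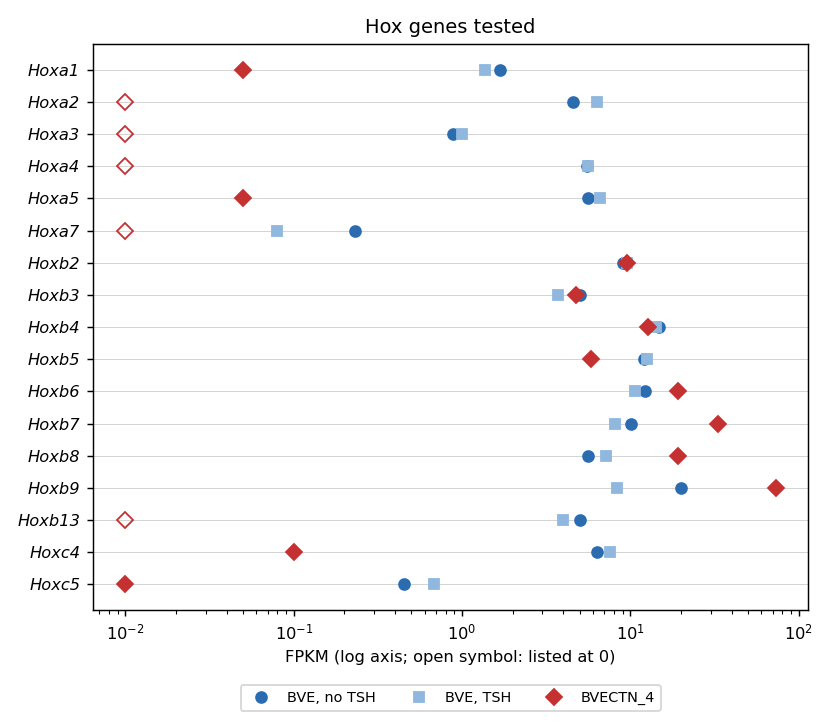
FPKM of the 17 Hox genes tested in the 3 libraries on a log axis, ordered by cluster, with an open symbol where a gene is listed at 0. The HoxA and HoxC genes of BVECTN_4 lie at or near 0 while Hoxb2 to Hoxb9 lie between 4.73 and 73.0 FPKM. Hoxb13 is not listed in BVECTN_4.

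The genes farthest from the nearer BVE library, among those called with an FPKM of at least 10 on the higher side, included several of other lineages. Hand1, a transcription factor of heart and trophoblast, had 0, 0 and 7079 counts (124 FPKM in BVECTN_4), at least 1507-fold higher. Sprr1a, a cornified envelope protein of squamous epithelia, had 6.39, 16.8 and 3691 FPKM (log2 fold change 7.68, adjusted p = 1.29e-05). Ppbp, a chemokine of platelets, had 0.45, 0.95 and 382, and Tns4, a tensin of focal adhesions, had 0.34, 0.20 and 74.1. The others were Add2, Tspan1, Abcc3, Ppp2r2c, Dlk1 and Hpn, each with at most 3 counts in either BVE library and between 2906 and 7362 in BVECTN_4. In the other direction stood Bgn, Cxcl14, Col3a1, Acta2, Col1a2 and H2-L, together with Crabp1, a retinoic acid binding protein (2302, 2706 and 5.06 FPKM), Vip, a neuropeptide (7536, 7491 and 3 counts), Mrc2, a collagen receptor (6242, 7252 and 6), and the ubiquitin pseudogene Ubb-ps (5043, 5676 and 5), whose reads may be shared with Ubb.

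The other null lines were compared with BVECTN_4 to see whether these values were particular to it. In edgeR's quasi-likelihood test over all 5 libraries, 0 of 14385 genes (0%) differed between BVECTN_4 and the other null lines after Benjamini-Hochberg adjustment (lowest adjusted p 0.117). At an unadjusted p under 0.05, 1346 genes were above and 1113 below the other null lines, and DESeq2 called 1649 in either direction. Without BVECTN_4A or without BVECTN_5, where the difference between these lines no longer enters the spread, 2883 and 2654 genes passed. Nothing is therefore called particular to BVECTN_4, and the values are set side by side. Of the 2250 genes called higher, 1352 were also above both BVE libraries in BVECTN_4A and 1691 in BVECTN_5. Of the 1663 called lower, 1270 and 1150 were also below both. These counts use TMM-scaled CPM of all 5 libraries without a limit of size, and the same counts over all genes are not given here.

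BVECTN_4A and BVECTN_5 lay apart for the epithelial genes. Epcam had 0 FPKM in BVECTN_4A and 59.6 in BVECTN_5, against 152 in BVECTN_4. Cdh1 had 0 and 20.9, and Krt7 had 111 and 461. The 19 Epcam and tight junction genes summed to 101 FPKM in BVECTN_4A and 465 in BVECTN_5, against 163 and 155 in the BVE libraries and 3563 in BVECTN_4. Several mesenchymal genes were higher in both other lines than in BVECTN_4. Vim had 2864 and 1401 FPKM, Acta2 had 192 and 942, and Twist1 had 30.4 and 65.0, where BVECTN_4 had 85.1, 0 and 0.02. Snai1 and Tpm2, an actin-binding tropomyosin, were not, with 3.87 and 3.28 FPKM in BVECTN_4A against 9.54 and 28.9 in BVECTN_4. Bgn differed between the other lines, with 20.9 in BVECTN_4A and 1059 in BVECTN_5. Pax8 had 12.8 and 2.56, and Nkx2-1 had 34.8 and 0.26. Hand1 had 0 and 0.07. Some of the genes farthest below BVE were low in every null line. Crabp1 had 16.8 and 3.63 FPKM in BVECTN_4A and BVECTN_5, Vip had 0.83 and 0.02, and H2-L had 0.06 and 0. Others were not, such as Mrc2 and Col1a2, with 38.3 and 334 in BVECTN_5.

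**Figure D5:**
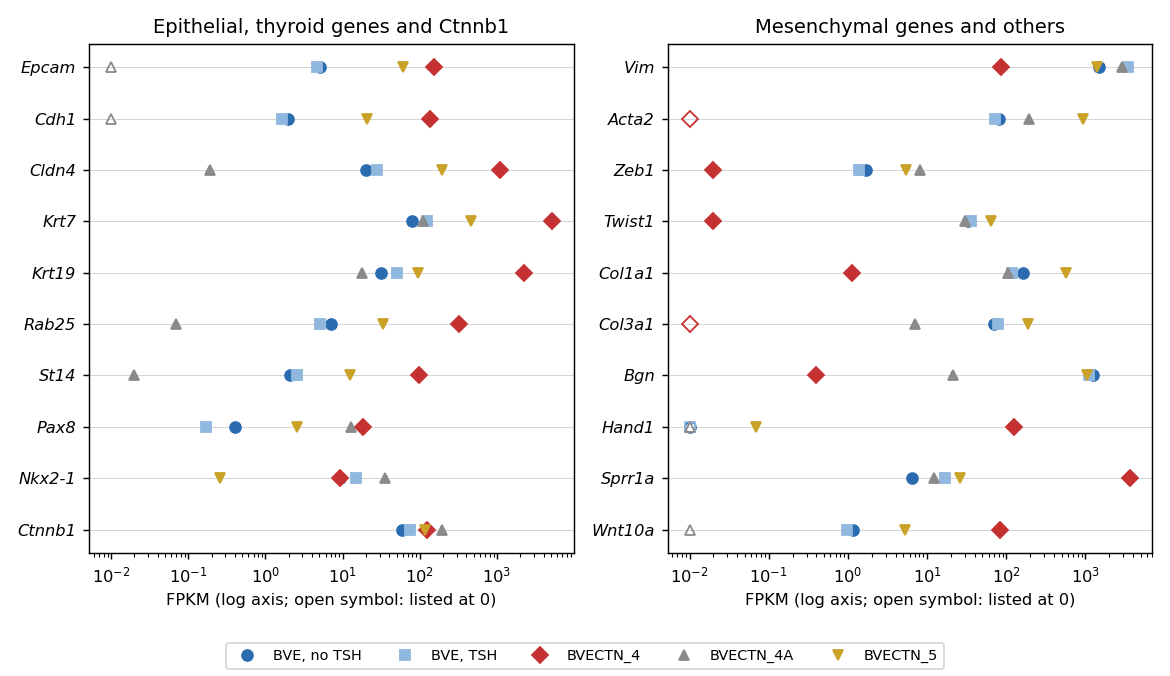
FPKM of 20 genes in all 5 libraries on a log axis, with 1 symbol per library and an open symbol where a gene is listed at 0. BVECTN_4 has the highest Epcam (152), Cdh1 (136) and Krt7 (5131) and the lowest Vim (85.1) and Twist1 (0.02) of the 5, while BVECTN_4A has no listed Epcam or Cdh1.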

How the data were processed

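RNA from the cell lines was sequenced from TruSeq libraries on an Illumina instrument. The authors deposited, per RefSeq transcript and library, an estimated count and an FPKM value, listed from an FPKM of 0.01 upward. The aligner, counting program and genome build are not given in the sources used here. Both values were summed per NCBI gene number, and counts were rounded to whole numbers. Of 17923 genes, 17866 were named from RefSeq (GRCm38.p6) and 10 from the symbols of a supplementary table. The main test was edgeR 4.0.16 (R 4.3.3) with TMM and filterByExpr, glmQLFit and glmQLFTest, an adjusted p under 0.05 and BVECTN_4 outside both BVE libraries. Alternatives were DESeq2 1.42.0, limma 3.58.1 on log2(FPKM + 0.1, 0.01 or 1), other filters, library totals, all 5 libraries and leaving out libraries. The edgeR, DESeq2 and limma fits were tested on simulated data, where small changes were rarely recovered and limma made the most false calls at the largest change. Every simulated library had the spread fitted to the real data. The simulation therefore cannot test the assumption that BVECTN_4 varies like the BVE libraries. As many genes were raised as lowered, so a shift in scaling was not simulated. Promoter sequences are from RefSeq.

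The groups compared, the 33 gene lists and the rule for named genes were chosen with earlier results of these data known. That rule takes Epcam, Ctnnb1, per list up to 6 members of highest FPKM and up to 4 farthest from the nearer BVE library, 10 genes per direction across all genes and the most abundant genes per library. F11r, Cldn12, Cald1, Hk2, Fzd9, Pfkp, Hoxb2, Hoxb13, Itga7, Nkd2, Rnf43, Foxe1 and Ptprc fall outside it and were named after their values were seen. Where a gene was not listed, fold bounds use 3 counts per library. Some members of the lists are not reported here by name.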

Additional observations from a re-analysis of the deposited data

How the results depend on the processing

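No paired analysis was possible because the labels give no pairing between the BVE libraries and BVECTN_4. The number of genes higher in BVECTN_4 (2250) fell to 1008 and 259 with limma on log2 of FPKM plus 0.1 and 0.01, and to 0 with all 5 libraries. The number lower (1663) became 218, 65 and 332 with limma and 0.1, 0.01 or 1 added, 711 on library totals and 0 with all 5 libraries. The genes at least 4-fold above both BVE libraries (1117) became 1834 and 2311 on FPKM plus 0.1 and 0.01 and 1720 on library totals, and 1346 to 1369 without 1 BVE library. Those at least 4-fold below (612) became 216 on FPKM plus 1, 393 on library totals and 848 to 865 without 1 BVE library. Of the called genes 57.5% were higher, against 51.1% with DESeq2, 80.7% on library totals and 82.2% with limma and 0.1 added. For BVECTN_4 against the other null lines, 1649 genes passed in DESeq2, and between 0 and 2883 with 1 library left out. With no filter, with a mean of at least 10 counts and with DESeq2, the calls against BVE stayed within 1.5 times. No named gene that was called changed sign, while the medians of the chemokine (-0.08) and proliferation lists (-0.12) became 0.44 and 0.51 on library totals. The cause of these changes was not tested, except that library totals shift all genes alike. The spread rests on 1 library pair, BVECTN_4 has no replicate, and the effect of depth was not tested. With limma on log2 of FPKM plus 0.1, list counts were mostly smaller, with 11 tight junction genes, 11 epithelial regulators and 6 desmosome genes higher, 1 matrix glycoprotein or proteoglycan gene higher and 7 lower, 3 proteases and inhibitors higher and 4 lower, 7 Wnt ligands, receptors and antagonists higher and 2 lower, 4 Wnt targets higher and 1 lower, 1 chemokine or cytokine higher and 3 lower, 2 other receptor tyrosine kinases higher and 3 lower, and 1 laminin, 1 ERBB, 1 TGF-β, 0 ERK and 0 collagen genes higher. In the same limma fit Snai3 and Mki67 were not called higher, and Syp, Cdh13, Raet1e, Errfi1 and Lamb1 were not called lower.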

Other observations

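The following families were chosen after their values were seen. Cytosolic ribosomal protein genes took 23.5% of the counts in each BVE library, 8.79% in BVECTN_4, 11.4% in BVECTN_4A and 13.0% in BVECTN_5. Of 77 tested, 75 were lower in BVECTN_4 than in both BVE libraries and 0 were higher, with a median log2 fold change of -1.99 (75 with DESeq2, 59 lower and a median of -1.41 on library totals, 4 lower with limma on log2 of FPKM plus 0.1, and 0 with all 5 libraries). Many of these genes have processed pseudogenes with near-identical sequence, so single values are uncertain. The translation factor Eef1a1 had 21695, 17482 and 6265 FPKM in BVE without TSH, BVE with TSH and BVECTN_4, and the small neuronal RNA Bc1 had 21075, 24367 and 4299.

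Small proline-rich proteins, which are cross-linked into the cornified envelope of squamous epithelia, were tested for 6 genes, with 4 higher and 2 lower, each by at least 4-fold. With limma on log2 of FPKM plus 0.1, 3 were higher and 0 lower, and with all 5 libraries 0 passed in either direction. The family took 0.00181% and 0.0046% of the counts in the BVE libraries and 0.293% in BVECTN_4, with 86969 of the counts there from Sprr1a. The 2 lower genes, Sprr2a1 and Sprr2a2, had equal counts in these libraries (190, 492 and 5), so their reads cannot be told apart. Among 11 S100 genes of calcium-binding proteins 3 were higher and 1 lower. S100a14 (16.6, 22.5 and 750 FPKM) and S100a16 (49.9, 51.5 and 586) were higher, and S100a4, a marker of mesenchymal cells, was lower (321, 1147 and 30.7). S100a11 had 1025, 2526 and 5410 FPKM, the third most abundant gene of BVECTN_4, and did not pass.

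Xist, the RNA of the inactive X chromosome, had 16, 5 and 726 counts in BVE without TSH, BVE with TSH and BVECTN_4, and Uty, on the Y chromosome, had 0, 0 and 1. As a description over 12187 genes, Pearson's r of log2(FPKM + 0.1) was 0.968 for the BVE pair, 0.772 for BVECTN_4 with BVE without TSH and 0.78 with BVE with TSH. For BVECTN_4 with the other null lines it was 0.744 (BVECTN_4A) and 0.793 (BVECTN_5).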
